A study of Mus musculus with 4 samples.

Results

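The clustered protocadherin genes of mouse chromosome 18 were followed through a map of open chromatin in hair follicle stem cells. Members were all RefSeq genes of that chromosome whose symbol begins with Pcdha, Pcdhb or Pcdhg, which gave 58 of the 49943 genes annotated on the autosomes, X and Y. They fall into 3 clusters, with 14 alpha, 22 beta and 22 gamma members, and 57 are annotated as protein-coding, the exception being the transcribed pseudogene Pcdhgb8. The rule itself reads gene names and no peak values.

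Clustered protocadherins are cadherin-like adhesion proteins of the cell surface, best known in neurons, where each cell uses a small set of them and like molecules on facing membranes bind each other. Every variable exon has its own promoter and encodes an extracellular domain, the membrane span and a short cytoplasmic stretch. In the alpha and gamma clusters the chosen variable exon is spliced to constant exons at the far end of the cluster, which encode a shared cytoplasmic tail, whereas each beta gene is a single exon with no constant part. The C-type members, Pcdhac1, Pcdhac2, Pcdhgc3, Pcdhgc4 and Pcdhgc5, lie last in their clusters and are expressed more evenly from cell to cell in neurons than the others. Choice among promoters is known to depend on CTCF and cohesin, which bring promoters to distant enhancers, and on DNA methylation, and enhancers lie in and beyond the constant exons of alpha and downstream of gamma.

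The assay was ATAC-seq, in which the transposase Tn5 places sequencing adapters in accessible DNA. Back skin was taken from females on postnatal day 30, and the cells were gated as H2BGFP(+), Sca-1(-), CD34(+) and CD49f(+). Both genotypes carried K14-H2BGFP, a reporter driven by the keratin 14 promoter, and Foxc1 fl/fl alleles, and the knockout also carried K14Cre, so that Foxc1 is removed in the keratin 14 lineage, while the control had no Cre. Each genotype was taken as 1 library sequenced in 2 runs. The series has a single list of accessible regions (peaks) for all 4 runs, given as mm10 coordinates without any score, count or genotype, so nothing below separates knockout from control, there is no replicate error, and the depth is unknown. Peak width is the sole property a peak carries. A peak in a bulk library cannot show whether few cells are open or all are partly open.

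The list held 74777 peaks, 2627 of them on chromosome 18, and the median peak was 587 bp wide, with quartiles of 341 and 1025 bp. No peak was under 200 bp, and 6.52% had exactly that width. All 10 marker genes chosen for hair follicle stem cells, among them Krt14, Itga6, Cd34 and Lgr5, had a peak within 1 kb of an annotated end. So did 3 of 8 neuron, 3 of 6 Schwann cell, 4 of 5 melanocyte, 1 of 4 immune cell, 2 of 5 fibroblast and 0 of 4 endothelial cell markers, against 57.6% of all protein-coding genes. The part of any other cell type in the protocadherin peaks was not tested.

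A peak at the gene start was found for 14 of the 58 members, or 24.1%, counting peaks that share at least 1 base with the 1000 bp on either side of the start. All members are transcribed toward higher coordinates, so the start is the lower-coordinate bound of the gene. Over the 17492 protein-coding genes whose strand was known, none of them on chromosome 18, 55.2% had a start peak. Over the lower-coordinate ends of all 21887 protein-coding genes, which mix starts with far ends, 33.0% had one, and on chromosome 18 alone 38.6%. The clusters were unequal, with start peaks at 2 of 14 alpha members (14.3%), 1 of 22 beta members (4.55%) and 11 of 22 gamma members. With all peaks counted, the gamma share is near that of protein-coding genes in general, and the alpha and beta shares lie below it. With only peaks of at least 587 bp, the median width, 3 of 22 gamma members had a start peak, against 50.2% of protein-coding genes with a known strand, so the gamma share is then below it too. These shares describe 1 list and were not tested, since neighbouring members are not independent.

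**Figure D1:**
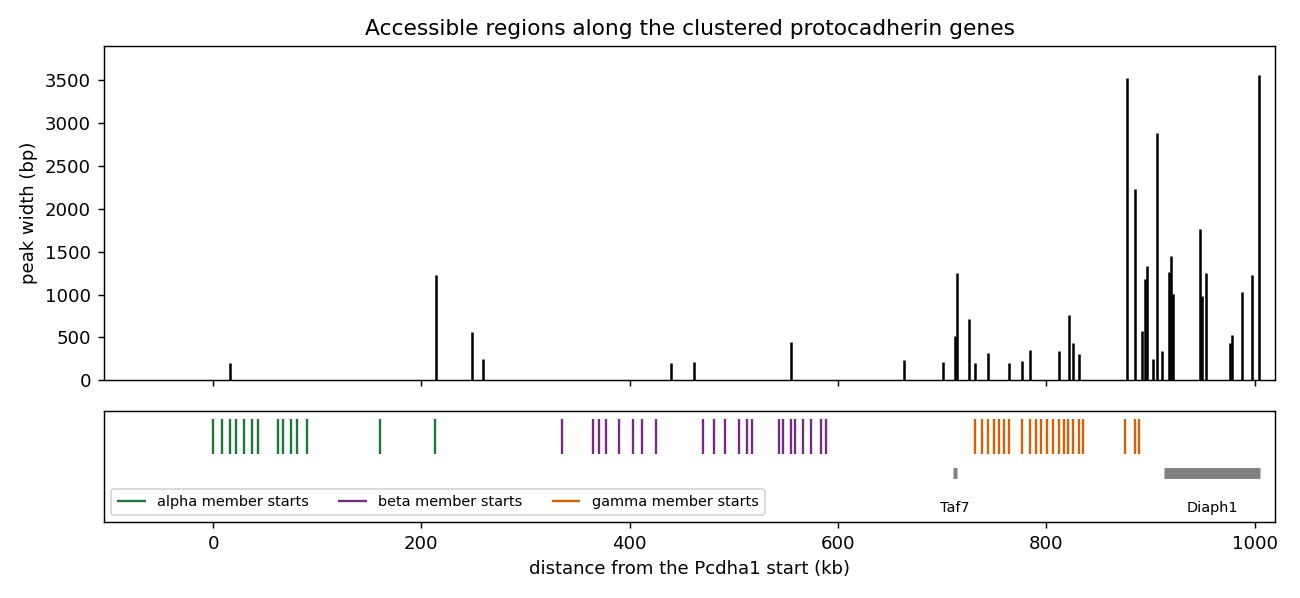
Peaks along the 3 clusters and 100 kb on either side. Each line of the upper panel is a peak placed by distance from the Pcdha1 start in kb, with its height giving its width in bp; the lower panel marks member starts by cluster and the genes Taf7 and Diaph1. The 3 alpha and 3 beta peaks are sparse, and the widest peaks, up to 3563 bp, stand at the gamma C-type genes, in the gamma constant segment and at Diaph1.

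Among the 5 C-type members, 3 had a start peak, at Pcdhac2, Pcdhgc3 and Pcdhgc4, a share near the 55.2% of protein-coding genes. These were the widest start peaks of the family. At Pcdhgc3 (gene from 37806410 to 37841873) the peak at chr18:37805845-37809375 measured 3531 bp, began 565 bp below the start and ran 2966 bp above it, over the whole of the first 2500 bp taken as the variable exon. Only 0.578% of all peaks, and 1.95% of the start peaks of protein-coding genes, were at least that wide. At Pcdhgc4 (start 37815079) the peak at chr18:37814175-37816402 measured 2228 bp and covered 1324 bp of the variable exon, and 3.49% of all peaks were at least as wide. At Pcdhac2 (start 37143678) the peak at chr18:37143320-37144545 measured 1226 bp, with 358 bp below the start and 868 bp above it, and 18.2% of all peaks were at least as wide. All 3 peaks covered the annotated start base itself.

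The other C-type members lacked a start peak, and they lay in unlike surroundings. Pcdhgc5 (start 37819546) had its nearest peak 2.83 kb above its start. That peak lay at the beginning of the gamma constant segment as set here, with a variable exon of 2500 bp. Pcdhac1 (start 37090136) had its nearest 53.2 kb above, which is the peak of Pcdhac2.

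The remaining alpha members were almost without peaks. Of the 12 genes from Pcdha1 to Pcdha12, only Pcdha3 had one, at chr18:36946073-36946274. It measured 202 bp, close to the smallest width in the list, and covered the start base with 187 bp above it; 92.5% of all peaks were at least as wide. Beyond it no peak was called for 197 kb, a stretch that holds the starts of 10 members from Pcdha4 to Pcdhac1. Of the 71993 gaps between neighbouring autosomal peaks, 2.58% were at least that long, and the median gap was 11.7 kb. Such a share counts gaps and not the ground they span, of which long gaps hold more. Among autosomal windows as long as the alpha cluster, 33.4% held as few peaks as its 3. The stretch of 143 kb below Pcdha3, which holds the starts of Pcdha1 and Pcdha2, was likewise empty, and 4.52% of gaps were at least as long. The 11 alpha members from this array with no start peak lay between 6.42 and 74.0 kb from the nearest one, with a median of 27.5 kb.

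The beta cluster spanned 256 kb and held 3 peaks, of which 1 lay at a gene start. That peak, at chr18:37484586-37485028, measured 443 bp and reached from 435 bp below the start of Pcdhb17 to 8 bp inside the gene, so it lay almost wholly on the promoter side. The other beta peaks, chr18:37370189-37370388 (200 bp) and chr18:37391849-37392061 (213 bp), stood in the ground between Pcdhb8 and Pcdhb9, the nearest member start being 8.79 kb away from the second of them. The 21 beta members with no start peak were between 4.44 and 75.7 kb from the nearest peak, with a median of 29.4 kb. A stretch of 181 kb without any peak reached from just beyond the alpha cluster to above Pcdhb8 and held 8 member starts. By number, 3.0% of autosomal gaps were at least as long. Among autosomal windows as long as the beta cluster, 34.4% held as few peaks as its 3. Pcdhb17 stood alone, with no peak for 92.5 kb below its peak (8 starts, Pcdhb9 to Pcdhb16) and for 108 kb above it (5 starts, Pcdhb18 to Pcdhb22).

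The gamma A- and B-type genes, which are interspersed along 107 kb ahead of the C-type genes, had small peaks placed at single starts. Start peaks were found at 6 of 12 A-type members (Pcdhga1, Pcdhga3, Pcdhga5, Pcdhga6, Pcdhga7 and Pcdhga11) and at 3 of 7 B-type members (Pcdhgb6, Pcdhgb7 and Pcdhgb8), shares not far below the 55.2% of protein-coding genes. The array held 9 peaks in all, and all 9 had their midpoint within 500 bp of a member start. Windows of that size around its 19 starts take up 17.7% of its bases. Widths were 200 bp at Pcdhga1 and at Pcdhga5, 227 bp at Pcdhga6, 303 bp at Pcdhgb8, 322 bp at Pcdhga3, 337 bp at Pcdhgb6, 352 bp at Pcdhga7, 439 bp at Pcdhga11 and 763 bp at Pcdhgb7. Of these, only the Pcdhgb7 peak, at chr18:37751463-37752225, was wider than the median of the list.

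Peaks of the array sat close to the start base and mostly on its transcribed side. The peak midpoint lay between -220 bp (Pcdhgb8) and 225 bp (Pcdhgb7) from the start, counted positive on the transcribed side, with a median of 141 bp. In all 6 A-type members the midpoint was above the start, by 37 to 183 bp. The peak covered the annotated start base at 6 of the 9 genes. It began 68 bp above the start at Pcdhga1 and 84 bp above it at Pcdhga5, inside the variable exon, and it ended 69 bp below the start of the pseudogene Pcdhgb8. Members without a start peak were Pcdhga2, Pcdhga4, Pcdhga8, Pcdhga9, Pcdhga10 and Pcdhga12 of the A type and Pcdhgb1, Pcdhgb2, Pcdhgb4 and Pcdhgb5 of the B type. They stood in between, 3848 to 10957 bp from the nearest peak with a median of 5.25 kb, while neighbouring gamma starts lie a median of 5.33 kb apart. Variable exons resemble one another in sequence, and the sources used here do not say how reads that match several places were treated, so its part in which starts have a peak was not tested.

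**Figure D2:**
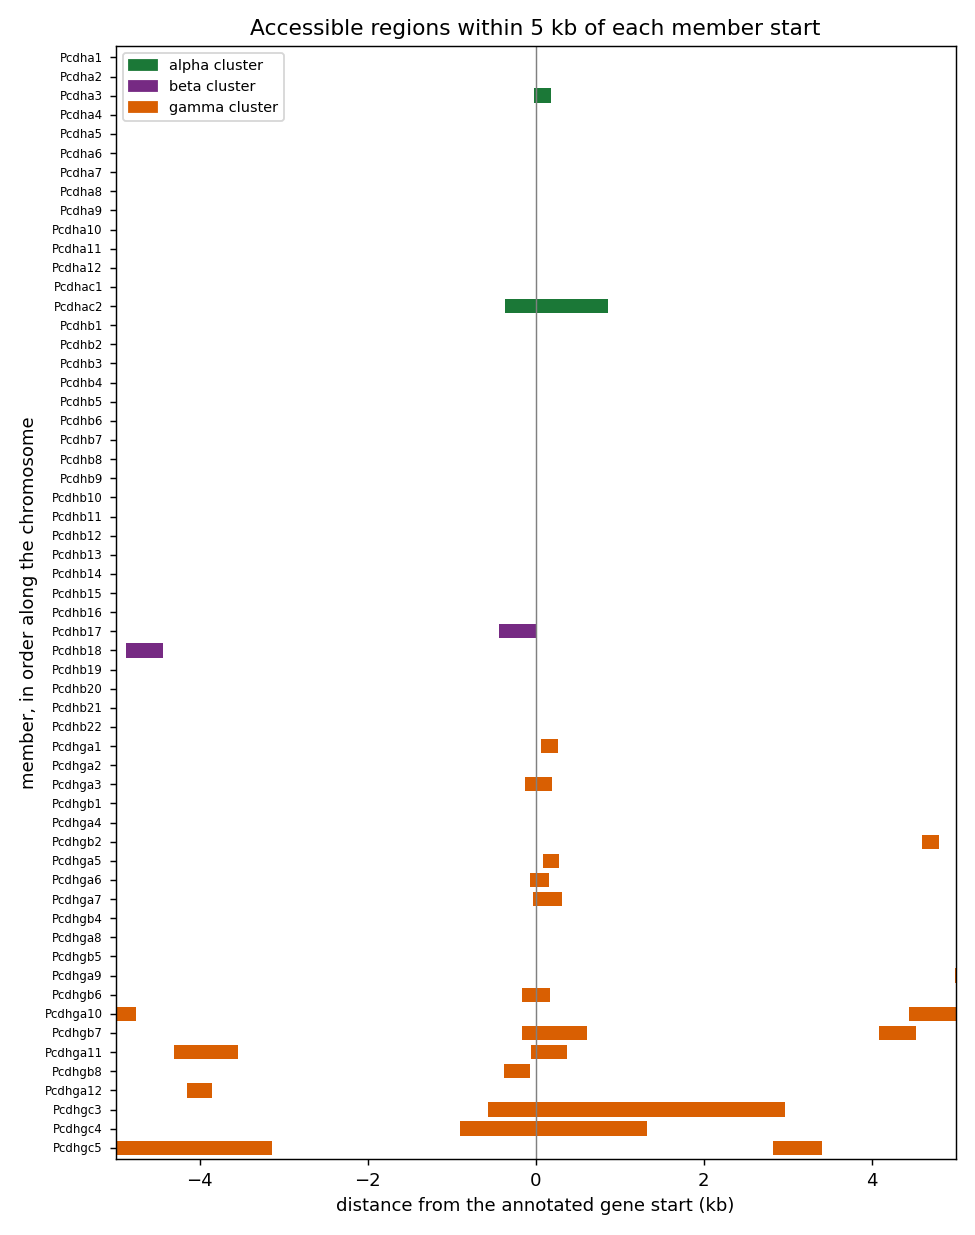
Peaks within 5 kb of the start of each of the 58 members, listed in chromosomal order, with distance from the annotated start in kb and bars showing peak extent. Bars at 0 mark the 14 members with a start peak; the small bars of the gamma A- and B-type genes have midpoints from -220 to 225 bp, and bars away from 0 belong to neighbouring members or, for Pcdhgc5, to the constant segment.

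Start peaks of the family were narrow by comparison with those of other genes, apart from the C-type members. The 14 widths ran from 200 to 3531 bp with a median of 344.5 bp, and 10 of them were below the 587 bp median of the list. The widest start peak of the 9648 protein-coding genes that had one and whose strand was known measured 1334 bp at the median (quartiles 935 and 1807 bp), and 9.02% were below 587 bp. Of those, 84.0% were at least as wide as the Pcdhgb7 peak of 763 bp. The Pcdhac2 peak stood near their middle, with 57.1% at least as wide, and the Pcdhgc4 peak above most, with 13.2% at least as wide. Width depends on the peak caller and on depth, and neither the caller's settings nor the number of reads is known here.

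**Figure D3:**
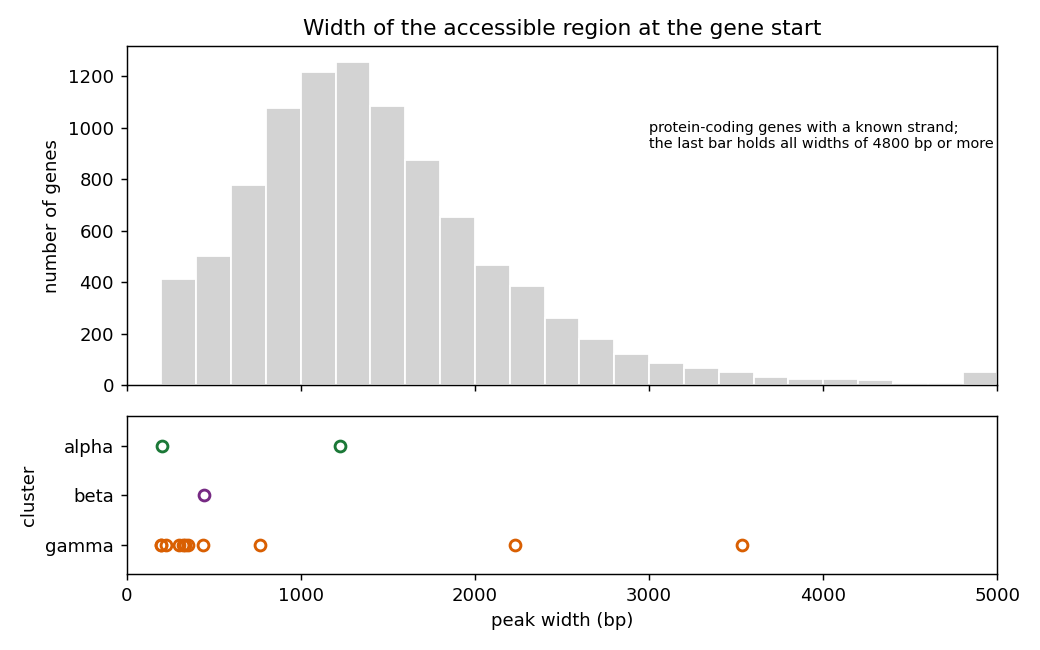
Width in bp of the start peak of 9648 protein-coding genes with a known strand (upper panel, number of genes per 200 bp; the widest peak where a gene has several) and of the 14 members with a start peak (lower panel, 1 circle a member, by cluster). Most members lie below 587 bp, and the circles at 1226, 2228 and 3531 bp are Pcdhac2, Pcdhgc4 and Pcdhgc3.

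The segments that hold the constant exons of the alpha and gamma clusters differed in their number of peaks. The gamma constant segment was the 19.8 kb from the assumed end of the Pcdhgc5 variable exon to the shared gene end. It held 6 peaks that covered 33.1% of its length. With the variable exon taken as 3500 bp in place of 2500 bp, the gamma count was 5. The alpha constant segment, 42.7 kb from the Pcdhac2 variable exon on, held 1 peak that covered 1.31% of it. The alpha peak lay at chr18:37178441-37178998 and measured 558 bp. A second small peak of 252 bp, at chr18:37189042-37189293, began 145 bp beyond the furthest alpha end, that of Pcdha6, and was the only peak in the 76.1 kb between the alpha and beta clusters. The gene table gives no exons, so peaks could not be put in or between single constant exons, nor matched to the enhancers known there.

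In the gamma constant segment the widest peak, at chr18:37835320-37838206, measured 2887 bp and ended 3667 bp before the shared gene end; 1.29% of all peaks were at least as wide. Ahead of it stood peaks of 579 bp (chr18:37822376-37822954), 1185 bp (chr18:37824885-37826069), 1333 bp (chr18:37826293-37827625) and 248 bp (chr18:37832388-37832635). The peak of 1333 bp overlapped the lower-coordinate end of the long non-coding RNA gene Gm29994, from 37827111 to 37830230. The last peak, of 339 bp at chr18:37841472-37841810, ended 63 bp before the shared end of the gamma genes. Because of this 1 peak, all 22 gamma genes have a peak at the far end, and 26 of the 58 members have a peak at either end, against 57.6% of protein-coding genes.

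Open chromatin went on beyond the gamma cluster. No peak lay in the 1.73 kb between the shared gamma end and Diaph1, the gene of a formin that nucleates actin filaments, but all 11 peaks of the 100 kb above the gamma cluster overlapped Diaph1 (37843601 to 37935622). The nearest 3, of 1259, 1452 and 1008 bp, began 5.64, 7.14 and 9.96 kb beyond the gamma end, at chr18:37847515-37848773, chr18:37849017-37850468 and chr18:37851832-37852839. A second group of 3, of 1759, 983 and 1254 bp, began 34.9, 37.8 and 41.0 kb beyond it. The others began between 64.9 and 90.7 kb away, and the last of them, chr18:37932577-37936139, was the widest of the stretch at 3563 bp. It covered the upper-coordinate end of Diaph1 and came within 1 kb of Hdac3, a histone deacetylase gene. Coordinates do not assign a peak inside Diaph1 to Diaph1 or to the protocadherins, and this was not tested.

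**Figure D4:**
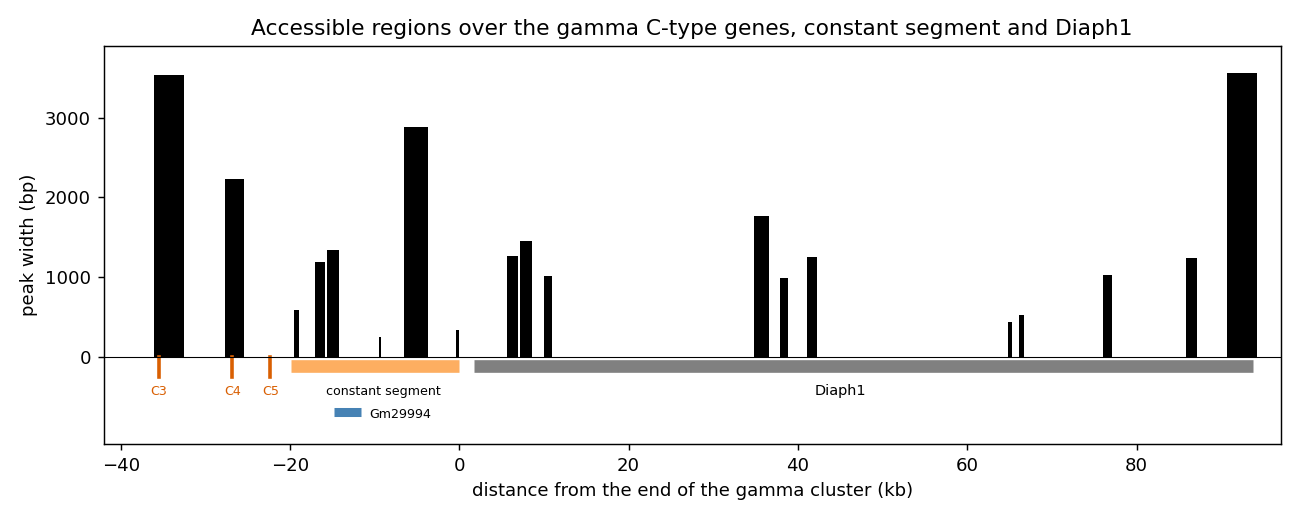
Peaks from the gamma C-type genes to the upper end of Diaph1, by distance from the shared end of the gamma genes in kb; each bar spans its peak and its height is the width in bp. Marks below give the starts of Pcdhgc3, Pcdhgc4 and Pcdhgc5, the constant segment, Gm29994 and Diaph1. Peaks of 3531, 2228 and 2887 bp stand at Pcdhgc3, Pcdhgc4 and in the constant segment, followed by 11 peaks over Diaph1.

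On the other side the clusters were bordered by empty ground. The 100 kb below Pcdha1 held 0 peaks, and the only gene annotated there was the transcribed pseudogene Gm6756. The 140 kb between the beta and gamma clusters held 5 peaks. Of these, 2 overlapped Taf7, which encodes a subunit of the general transcription factor TFIID. They measured 517 and 1253 bp, and the wider, at chr18:37643513-37644765, covered its upper-coordinate end. Slc25a2, a mitochondrial carrier gene next to Taf7, had none. The other 3 overlapped no gene apart from read-through models, with 242 bp at chr18:37593374-37593615, 209 bp at chr18:37630906-37631114 and 718 bp at chr18:37655391-37656108, the last ahead of Pcdhga1. The annotation also holds 3 read-through genes that run from alpha exons to the gamma end, Gm37013, Gm38666 and Gm38667, and none (0) had a peak at the lower-coordinate end. Pseudogenes inside the alpha and beta clusters (Gm36858, Gm18150, Gm19035, Gm18529 and Gm20162) had no peak at either end, nor had Gm8242 ahead of the gamma cluster or Mir6979 inside Diaph1. The pseudogene Gm24401 had the start peak of Pcdhga6 within 1 kb of its upper-coordinate end.

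Peaks were denser in gamma than in the other clusters. Alpha carried 11.6 peaks per Mb over 259 kb and beta 11.7 over 256 kb, against 94.4 over the 180 kb of gamma, 30.0 for chromosome 18 and 29.5 for all autosomes. Peaks covered 0.768% of alpha, 0.334% of beta and 8.59% of gamma, against 2.35% of chromosome 18. The part of gamma from 1 kb ahead of Pcdhgc3 to the shared end carried 8 of its 17 peaks in 36.5 kb, or 219 per Mb, and the A- and B-type array 83.9 per Mb. When the autosomes were tiled with windows as long as each cluster, the median window held 6 peaks at the alpha and beta lengths (quartiles 2 and 11) and 4 at the gamma length (quartiles 1 and 8). As few as the 3 alpha peaks were seen in 33.4% of windows and as few as the 3 beta peaks in 34.4%, so a low count of that size is common in the genome. As many as the 17 gamma peaks were seen in 3.21% of windows.

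Protocadherin genes outside the clusters gave another reference. Of 12 such genes, 8 had a peak at either end, against 57.6% of protein-coding genes, and 9 had a known strand, 7 of them with a start peak. Pcdh7 had an end peak of 6348 bp and 29 peaks inside the gene, and Pcdh1, on chromosome 18 from 38185914 to 38212048, had 3 end peaks, the widest 2666 bp. Pcdh10, Pcdh17, Pcdh18, Pcdh19, Pcdh20 and Pcdh8 had 1 end peak each, of 592 (Pcdh8) to 2238 bp (Pcdh17). Pcdh9, Pcdh11x, Pcdh12 and Pcdh15 had none at an end. Other tandem families are given side by side, with no test. A start peak was found in 1.48% of 944 olfactory receptor (Olfr) genes and 1.87% of 321 vomeronasal receptor genes, families in which sensory neurons also choose few members. Shares were 19.4% of 36 keratin genes of chromosomes 11 and 15 and 27.3% of 22 Hox genes. The share over all protein-coding genes with a known strand was 55.2%, to be set beside these shares and the 7 of 9 protocadherins outside the clusters.

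Genes whose products act on the clusters or on the proteins were looked at last. Of 21 genes of chromosome architecture and silencing, several of them known to act at these clusters, 13 (61.9%) had an end peak, near the 57.6% of all protein-coding genes. They included Ctcf (1609 bp), the cohesin subunit genes Smc1a (1380 bp) and Smc3 (1696 bp), the cohesin release gene Wapl, Smchd1 (2118 bp), which encodes a chromatin repressor, and the DNA methyltransferase gene Dnmt3b. Rad21, Nipbl, Stag1, Setdb1, Dnmt1, Dnmt3a, Kdm1a and Wiz had no end peak, although each but Setdb1 had between 1 and 12 peaks inside the gene. Of 11 genes of cytoplasmic partners and processing, 10 (90.9%) had an end peak, against 57.6% of all protein-coding genes. Among them were the kinase genes Ptk2 (2783 bp) and Ptk2b (933 bp), which the constant tails bind. The WAVE complex genes Nckap1, Abi1, Cyfip1, Cyfip2 and Wasf1 and the protease gene Adam10 were also among them. Axin1 was the exception, with 1 peak inside the gene.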

How the data were processed

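The values are the coordinates of accessible regions that the authors deposited for the whole series, in 3 columns with no score and no sample. The tools named in the submitters' processing notes are Bowtie2, MACS2 and bedtools, and the build is mm10. The sources used here give no versions, settings, read filters or Tn5 offset, nor whether reads were pooled. The 2 runs of a genotype were taken as 1 library. No per-sample column was left unused (0).

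Starts were made 1-based. Gene bounds came from RefSeq on GRCm38.p6, which shares its primary coordinates with mm10. That table has no strand or exons, so the variable exon was taken as 2500 bp from the start, and strand came from a RefSeq promoter table that holds none (0) of the members. No sequence is printed for that reason. Windows, segments and flanks (100 kb) were counted in Python 3.11.15 with pandas 2.3.3, with interval counting tested on simulated data. No significance test was run. Members, lists and naming rule (every member, every peak between, in or beyond the constant segments) were chosen with earlier results of these data known; 1 gene of a list is not reported here. Other windows, overlap rules and width limits were tried.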

Additional observations from a re-analysis of the deposited data

How the results depend on the processing

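A total of 41 alternatives were computed for 11 counts, and 31 of them stayed within 1.5 times the reported count. Windows of 500 and 2500 bp around member starts gave the same 14, 2, 1 and 11 members (all, alpha, beta, gamma), while the share of lower-coordinate ends with a peak over all protein-coding genes went from 29.9% to 40.1%. Placing peaks by midpoint gave 13. The 1 gamma member lost was Pcdhgc3, whose peak of 3531 bp covers the start but has its midpoint 1200 bp above it. Leaving out peaks of 200 bp gave 12. The choice that mattered was peak width. With only peaks of at least 587 bp, the members with a start peak numbered 4 in all, 1 in alpha, 0 in beta and 3 in gamma, against 28.7% of lower-coordinate ends and 50.2% of starts over all protein-coding genes. Peaks inside the clusters then numbered 1 in alpha, 0 in beta and 6 in gamma, and those in the constant segments 0 in alpha and 3 in gamma. The flank above the clusters held 6 peaks in 50 kb against 11 in 100 kb, because less ground was counted. The number of reads is unknown, so a start with no peak cannot be told from one below detection. No paired analysis was possible because the single list of regions carries no sample columns.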
